A study of Mus musculus with 18 samples.

Results

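The 9 genes described here encode subunits of class I PI3 kinases and proteins that hold the same pathway back in T cells. They were chosen by gene symbol, with earlier results of these data known. All 9 of 9 were found, among 22783 symbols in the table of experiment 1 and 16639 in that of experiment 2, and distinct rows of a symbol were summed. Pik3ca, Pik3cd and Pik3cg encode catalytic subunits (p110 alpha, p110 delta and p110 gamma), and Pik3r1 encodes the regulatory subunits of the p85 alpha family. Pik3ip1 encodes a transmembrane protein that binds the kinase and inhibits it. Inpp4b and Inpp5d (SHIP1) encode lipid phosphatases, and Tsc1 and Tsc2 encode the partners of a complex that inhibits mTORC1.

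RNA was sequenced from 18 cultures of mouse CD4+ T cells that had been sorted as naive cells from C57BL/6 spleens, activated through CD3 and CD28, and harvested on day 4. Experiment 1 compared tKO cells, which carry floxed Egln1, Egln2 and Egln3 with Cd4Cre (Egln1fl/fl Egln2fl/fl Egln3fl/fl Cd4Cre), with WT cells, which carry Cd4Cre alone. Both genotypes received TGF-b at 0, 0.2 or 2 ng/ml, and each of the 6 groups has 2 libraries. Experiment 2 compared 1 mM DMOG with vehicle in wild-type cells, all at 2 ng/ml TGF-b, with 3 libraries per group. Cd4Cre recombines floxed alleles in developing T cells, so deletion can precede the culture, and WT cells of experiment 1 carry the same Cre. Egln1, Egln2 and Egln3 encode the prolyl hydroxylases PHD2, PHD1 and PHD3, which mark HIF proteins for degradation, and DMOG inhibits these and other enzymes that use 2-oxoglutarate. The labels give no age and do not say which libraries came from separate mice. They tie the 3 doses of experiment 1 by series names (tKO1, tKO2, WT1 and WT2). Y-linked transcripts were present in tKO1 and absent or nearly so in tKO2, so these 2 series came from different animals. For the WT libraries and those of experiment 2 the labels do not settle this. The fit of experiment 1 pools the spread within its tKO and WT groups. Its p-values, and those of experiment 2, thus measure a spread between libraries that may be technical, in full or in part.

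Class I PI3 kinases sit at the membrane as a catalytic subunit bound to a regulatory one, and on activation they make the lipid PIP3. PIP3 recruits the kinase AKT, which restrains FOXO transcription factors and, by inhibiting the TSC1-TSC2 complex, releases mTORC1. In T cells p110 delta is the main catalytic subunit downstream of the antigen receptor and CD28, and p110 gamma is best known downstream of G protein-coupled receptors. SHIP1 removes the 5-phosphate of PIP3, and INPP4B removes the 4-phosphate of the product. PI3K activity itself was not measured here, and a transcript level does not report it.

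Values are FPKM (fragments scaled to transcript length and to the mapped fragments of a library) as the authors deposited them, so levels of different genes can be set side by side within a library. A gene was called where limma's moderated test on log2(FPKM + 1) gave a Benjamini-Hochberg adjusted p under 0.05 over all genes whose mean reached 1 FPKM. All 9 genes passed that filter in both tables. Whether groups overlapped is given as description only. Groups of 2 libraries can stand apart without a call, as Pik3ca did at 2 ng/ml with a tKO mean of 109.1% of the WT mean. The share of all genes that stand apart was not counted. Fold changes are differences of log2(FPKM + 1), given ± SE, and this scale understates the change of genes with low values. The libraries' summed FPKM was 548974 to 856147 in experiment 1, and 386268 to 443734 in the other. The number of reads is unknown, but the low values gave relative reads per FPKM of 0.776 to 1.22 in experiment 1, lowest in tKO at 0.2 ng/ml, replicate 2. T cell markers summed to 1254 to 1650 FPKM in tKO and 1648 to 2234 in WT, and to 783 to 1086 in DMOG and 1982 to 2333 in vehicle. B cell markers summed to 15.4 to 83.0 FPKM in tKO and 14.4 to 60.5 in WT, with Pax5 listed at 0 in 9 of 12 libraries and the myeloid gene Lyz2 in 12 of 12. In bulk RNA, fewer cells of a type and less RNA per cell cannot be told apart. Of the floxed genes, Egln1 was at 92.8 to 122 FPKM in tKO and 20.4 to 44.3 in WT, Egln2 at 19.9 to 39.0 in tKO and 35.6 to 48.8 in WT, and Egln3 at 77.4 to 140.2 in tKO and 5.68 to 18.7 in WT. These values cover whole genes and do not show the deleted exons, so they do not check the labels. Y-linked genes summed to 60.5 to 67.7 FPKM in the 3 libraries of tKO replicate 1 and to at most 0.008 in the other libraries of experiment 1. Sex thus differs within tKO and is not balanced between the genotypes, and its part in the differences was not tested.

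Promoter sequences show where the letters of a hypoxia response element or of a FOXO site stand near the starts of these genes. RefSeq's table for GRCm38.p6 gave 13 windows for the 9 genes, each from 250 bases before to 50 after an annotated start. ACGTG, the core of the hypoxia response element, was searched on both strands. Of the 13 windows it occurred in 1 each of Pik3ca, Pik3cd and Inpp4b. It stands in 19.6% of the 32851 promoter windows searched, which do not cover every chromosome. TGTTTAC, a FOXO motif, was also searched on both strands, and it occurred in a window of Pik3cg and in 3.65% of the windows searched. No window of the 9 genes held both motifs, so no matches overlapped. The following windows belong to the 4 genes that were called both over the doses and with DMOG, written 5′ to 3′ on the strand of the gene, with motif letters in capitals. Pik3ip1 had the largest differences of the 9 genes and no match, Inpp4b and Pik3cd were lower in tKO and in DMOG, and Pik3cg was higher in both.
Pik3ip1 (chr11:3330481-3330780, plus strand): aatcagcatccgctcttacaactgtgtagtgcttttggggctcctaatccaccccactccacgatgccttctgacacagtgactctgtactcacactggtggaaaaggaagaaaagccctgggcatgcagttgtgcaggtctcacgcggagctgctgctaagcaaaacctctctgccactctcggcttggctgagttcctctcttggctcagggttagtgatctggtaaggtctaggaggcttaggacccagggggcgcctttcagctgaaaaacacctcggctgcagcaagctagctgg
Inpp4b (chr8:81342312-81342611, plus strand): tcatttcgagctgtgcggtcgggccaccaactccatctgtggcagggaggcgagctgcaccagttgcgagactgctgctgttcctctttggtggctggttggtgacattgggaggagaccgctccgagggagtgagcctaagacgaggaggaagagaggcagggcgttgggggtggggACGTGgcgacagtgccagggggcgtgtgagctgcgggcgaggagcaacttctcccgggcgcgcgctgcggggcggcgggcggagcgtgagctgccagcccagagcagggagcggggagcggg
Pik3cd, second window (chr4:149676040-149676339, minus strand): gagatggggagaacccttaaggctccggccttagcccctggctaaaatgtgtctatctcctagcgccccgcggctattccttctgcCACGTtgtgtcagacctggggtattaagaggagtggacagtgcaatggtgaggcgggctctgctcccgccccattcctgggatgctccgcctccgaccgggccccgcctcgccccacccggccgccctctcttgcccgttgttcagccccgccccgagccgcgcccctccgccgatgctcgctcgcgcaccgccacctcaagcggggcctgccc
Pik3cg, second window (chr12:32208421-32208720, minus strand): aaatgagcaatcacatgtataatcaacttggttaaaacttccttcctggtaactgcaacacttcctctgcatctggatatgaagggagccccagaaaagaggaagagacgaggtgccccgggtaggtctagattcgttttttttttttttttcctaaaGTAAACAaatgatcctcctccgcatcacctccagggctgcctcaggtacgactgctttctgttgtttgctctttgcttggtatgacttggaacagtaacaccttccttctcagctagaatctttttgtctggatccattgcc
The ACGTG of Inpp4b begins at position -72 from its annotated start. In Pik3cd the capitals read as ACGTG on the opposite strand and begin at -164. In Pik3cg the capitals read as TGTTTAC on the opposite strand and begin at -92. Pik3ca held ACGTG on the opposite strand at -194. Pik3cd and Pik3cg each have other windows without a match. A match describes the letters of a window only, and binding was not measured. A link between matches and changes in level was not tested.

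Pik3cd was the most abundant of the 9 genes in tKO cells at all 3 doses, at 33.1 ± 5.94, 31.8 ± 5.64 and 42.6 ± 0.353 FPKM at 0, 0.2 and 2 ng/ml (SD, n = 2 each). In WT cells it was also first at 0 and 0.2 ng/ml, at 59.0 ± 10.5 and 57.8 ± 10.9 FPKM. At 2 ng/ml Pik3ip1 held rank 4 in tKO cells, at 16.4 ± 0.494 FPKM, and rank 1 in WT cells, at 129.6 ± 14.7 FPKM. Inpp4b and Inpp5d came next to Pik3cd in both genotypes without TGF-b. Below them in WT cells without TGF-b, Pik3ip1 at 9.18 ± 1.76 FPKM and Tsc2 at 8.30 ± 2.63 differed by less than their SDs, and so did Pik3ca at 5.55 ± 0.450 and Pik3cg at 5.47 ± 1.81. Tsc1 had the lowest mean of the 9 in all 8 groups of both experiments. Its mean ran from 0.927 ± 0.0632 FPKM in tKO at 0 ng/ml (n = 2) to 4.15 ± 0.180 in tKO at 2 ng/ml (n = 2). In DMOG, Tsc1 at 2.32 ± 0.380 FPKM and Pik3ip1 at 2.53 ± 0.343 differed by less than their SDs (n = 3 each).

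Over the 3 doses, 4 of the 9 genes were called in tKO against WT, 1 higher and 3 lower, where 27.2% of 10354 tested genes were called, 13.9% higher and 13.3% lower. Pik3ip1, Pik3cd and Inpp4b fell and Pik3cg rose. The median log2 fold change of the 9 genes was 0.03, against -0.02 over all tested genes. These pooled tests treat the 6 libraries of a genotype as independent, although they come from 2 labelled series cultured at 3 doses. With 1 mean per labelled series, 2 against 2, only Pik3ip1 and Pik3cd were called.

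**Figure D1:**
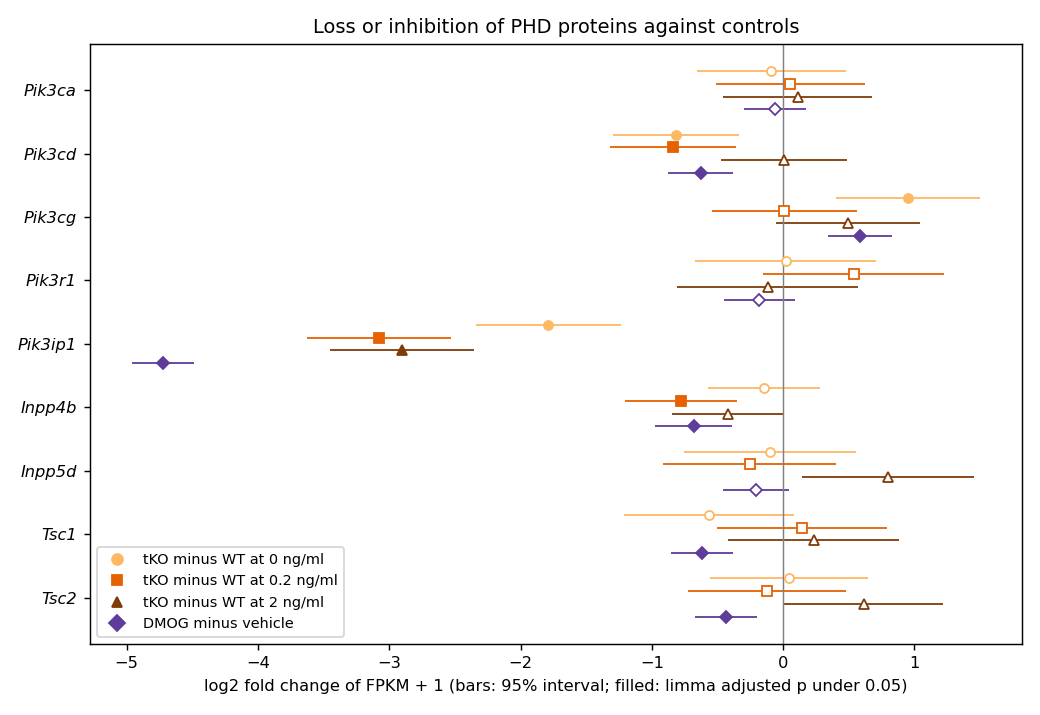
Log2 fold changes of FPKM + 1 for the 9 genes, for tKO minus WT at each TGF-b dose and for DMOG minus vehicle, with bars for the 95% interval. Filled symbols mark adjusted p under 0.05 by limma; Pik3ip1 lies far below 0 in every comparison, from -1.79 at 0 ng/ml to -4.72 in DMOG, and every other gene lies between -0.84 and 0.95.

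Pik3ip1 (chromosome 11, 3230733 to 3243001, mm9), the brake on the kinase itself, had by far the largest differences of the 9 genes. Its level was 1.84 and 2.02 FPKM in tKO at 0 ng/ml TGF-b, against 10.4 and 7.94 in WT. With 0.2 ng/ml it was 3.59 and 6.38 FPKM in tKO, against 54.5 and 42.5 in WT. With 2 ng/ml it was 16.8 and 16.1 FPKM in tKO, against 140.0 and 119 in WT. The genotypes did not overlap at any dose, and the tKO mean was 21.0%, 10.3% and 12.7% of the WT mean at 0, 0.2 and 2 ng/ml. The tKO libraries at the highest dose stood above the WT libraries without TGF-b and below those at 0.2 ng/ml. Over the doses the log2 difference was -2.59 ± 0.15 (limma, adjusted p = 3.22e-08). The difference was -1.79 ± 0.26 at 0 ng/ml (adjusted p = 5.18e-04), -3.08 ± 0.26 at 0.2 (adjusted p = 4.34e-06) and -2.90 ± 0.26 at 2 ng/ml (adjusted p = 9.78e-06). All 4 calls held without any single library, and the call at 0 ng/ml was lost without the 3 libraries of series WT1 (adjusted p = 0.0527). The T cell marker sums given above were also lower in tKO, with ranges that just met, and their part in this difference was not tested.

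Pik3ip1 rose with TGF-b in both genotypes. In tKO cells the mean was 8.51-fold higher at 2 than at 0 ng/ml, a log2 difference of 2.57 ± 0.26 (limma, adjusted p = 5.05e-05). In WT cells it was 14.1-fold higher, a log2 difference of 3.69 ± 0.26 (adjusted p = 1.60e-06). Between 0.2 and 0 ng/ml the tKO difference was 0.99 ± 0.26, with an adjusted p of 0.0624. It was called with a pseudocount of 0.1 (adjusted p = 0.0355), with the labelled series as a block (adjusted p = 0.0276) and without tKO at 0.2 ng/ml, replicate 1 (adjusted p = 0.0136). Without replicate 2 of that group it was 0.65 (adjusted p = 0.291), so the size of this step rests on which of the 2 libraries is kept. The same step in WT cells was 2.28 ± 0.26 (adjusted p = 6.06e-04), and this call was lost without series WT1 (adjusted p = 0.183) or WT2 (adjusted p = 0.150). The difference between tKO and WT in the effect of 2 against 0 ng/ml was -1.12 ± 0.36, with a 95% interval of -1.89 to -0.34 and an adjusted p of 0.117. Without tKO at 0.2 ng/ml replicate 1 or replicate 2 it was called, with the same estimate of -1.12. With a pseudocount of 0.1 it shrank to -0.79 and was not called (limma, adjusted p = 0.314).

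In DMOG the level of Pik3ip1 was 2.93, 2.31 and 2.36 FPKM, against 87.7, 96.4 and 92.3 in vehicle. No DMOG library came near any vehicle library, and the DMOG mean was 2.75% of the vehicle mean. This was a log2 difference of -4.72 ± 0.11 (limma, adjusted p = 1.18e-15). T cell marker sums were likewise lower in every DMOG library, and their part was not tested. Experiments 1 and 2 were scaled apart, so levels are not compared between them.

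**Figure D2:**
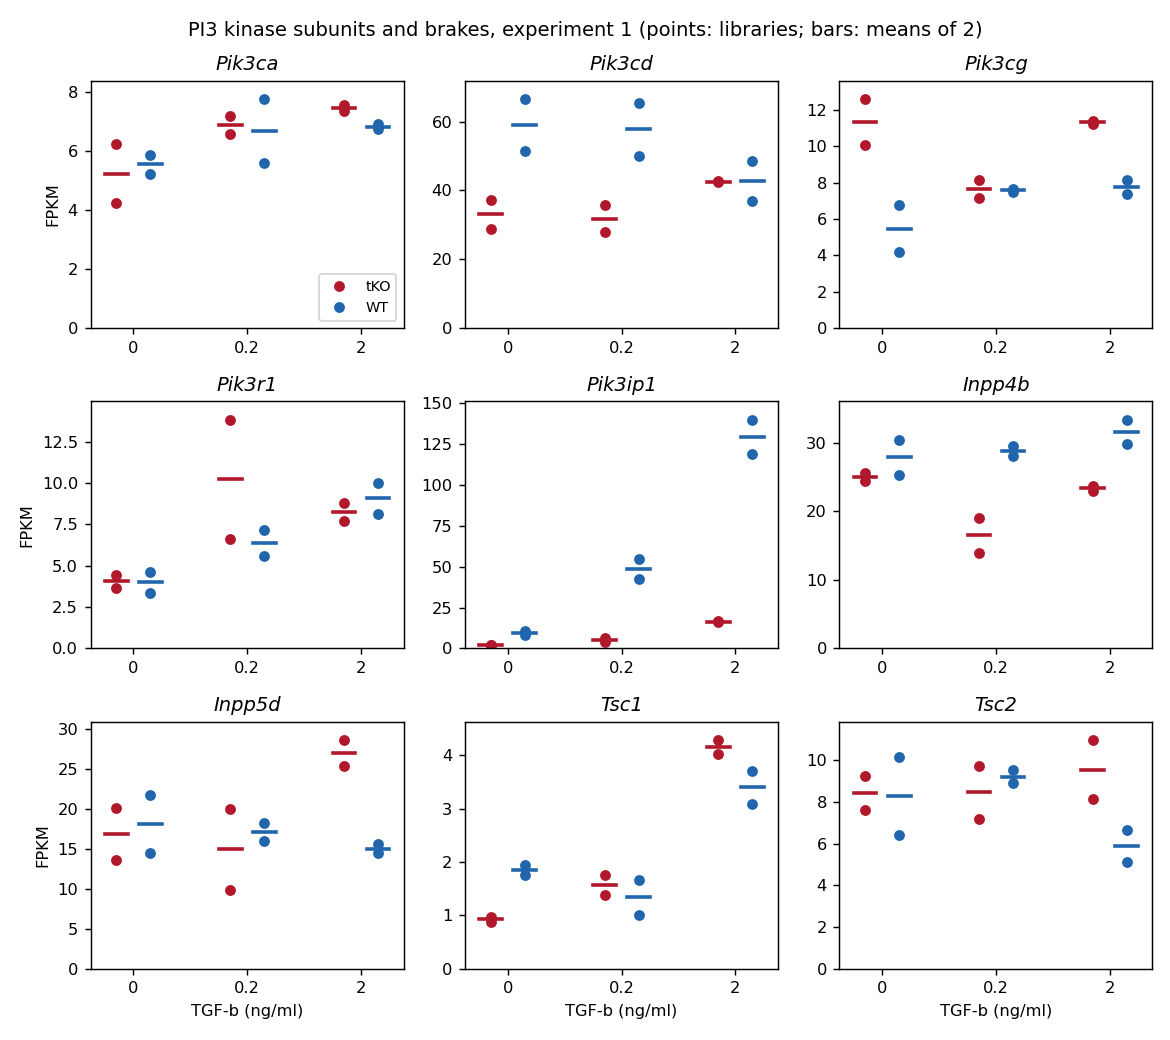
FPKM of the 9 genes in each library of experiment 1 (points), at 0, 0.2 and 2 ng/ml TGF-b, with tKO left of WT and bars at the mean of 2 libraries. Pik3ip1 climbs with dose in both genotypes and reaches 16.1 to 16.8 FPKM in tKO, against 119 to 140.0 in WT; Pik3cd is lower in tKO at 0 and 0.2 ng/ml and overlaps at 2.

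Among the catalytic subunits, Pik3cd was lower and Pik3cg higher in tKO, and Pik3ca was not called in any comparison. Pik3cd (chromosome 4, 148960695 to 149076620, mm9), the leading catalytic subunit in T cells, had 37.3 and 28.9 FPKM in tKO at 0 ng/ml, against 66.5 and 51.6 in WT. Cells given 0.2 ng/ml had 35.8 and 27.8 FPKM in tKO, against 50.1 and 65.5 in WT. Those given 2 ng/ml had 42.8 and 42.3 FPKM in tKO, against 36.8 and 48.5 in WT. The genotypes did not overlap at 0 and 0.2 ng/ml and overlapped at 2. The log2 difference was -0.55 ± 0.13 over the doses (limma, adjusted p = 0.00602), -0.82 ± 0.22 at 0 ng/ml (adjusted p = 0.0336) and -0.84 ± 0.22 at 0.2 ng/ml (adjusted p = 0.0215). At 2 ng/ml the difference was 0.01 ± 0.22, with a 95% interval of -0.47 to 0.49. The change of the genotype difference between 2 and 0 ng/ml was 0.83 ± 0.31, with an adjusted p of 0.176. The call over the doses was lost without series tKO2 (adjusted p = 0.0751) or WT2 (adjusted p = 0.0904). The call at 0 ng/ml was lost without either WT library of that dose, without tKO replicate 2 of that dose, and without either tKO library at 2 ng/ml, with adjusted p of 0.0616 to 0.282. It was also lost with no filter, with no mean-variance trend and with the groups of that dose alone (adjusted p of 0.0663 to 0.0848). The call at 0.2 ng/ml was lost without WT replicate 2 (adjusted p = 0.200) or tKO replicate 2 (adjusted p = 0.138) of that dose, with no filter (adjusted p = 0.0600) and with the groups of that dose alone (adjusted p = 0.101). The Pik3cd entry overlaps that of Clstn1, which averaged 2.42 FPKM, and the library kit does not mark the strand.

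Pik3cg (chromosome 12, 32858086 to 32893514, mm9), the subunit best known for signalling from G protein-coupled receptors, had 12.6 and 10.1 FPKM in tKO at 0 ng/ml, against 6.74 and 4.19 in WT. With 0.2 ng/ml the levels were 7.16 and 8.12 FPKM in tKO, against 7.49 and 7.66 in WT. With 2 ng/ml they were 11.4 and 11.2 FPKM in tKO, against 8.12 and 7.36 in WT. Both tKO libraries were above both WT libraries at 0 and at 2 ng/ml, and the genotypes overlapped at 0.2. The log2 difference was 0.49 ± 0.15 over the doses (limma, adjusted p = 0.0257) and 0.95 ± 0.25 at 0 ng/ml (adjusted p = 0.0306). Neither 0.01 ± 0.25 at 0.2 ng/ml nor 0.50 ± 0.25 at 2 ng/ml was called (adjusted p = 0.985 and 0.213). The call over the doses was lost when any of 7 of the 12 libraries was left out: tKO at 0 ng/ml replicate 1, tKO at 2 ng/ml replicates 1 and 2, WT at 0 ng/ml replicate 2, WT at 0.2 ng/ml replicates 1 and 2, and WT at 2 ng/ml replicate 2, with adjusted p of 0.0564 to 0.0900. Leaving out any of the 4 labelled series also ended it, with adjusted p of 0.0665 to 0.250. The call at 0 ng/ml was lost without either tKO library of that dose, without WT replicate 2 of that dose and without either tKO library at 2 ng/ml, with adjusted p of 0.0532 to 0.299, and with the groups of that dose alone (adjusted p = 0.114). B cell markers summed to 83.0 and 39.6 FPKM in tKO at 0 ng/ml and to 39.3 and 14.4 in WT, and their part in this difference was not tested.

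With DMOG Pik3cd was again lower and Pik3cg higher. Pik3cd had 47.4, 40.3 and 47.6 FPKM in DMOG, against 72.0, 63.0 and 75.8 in vehicle, with no overlap. The log2 difference was -0.63 ± 0.12 (limma, adjusted p = 1.79e-04). Pik3cg had 11.5, 10.9 and 12.9 FPKM in DMOG, against 7.55, 6.71 and 8.33 in vehicle, again with no overlap. The log2 difference was 0.58 ± 0.11 (adjusted p = 3.05e-04). Here B cell markers summed to 0.843 to 1.20 FPKM in DMOG and 6.85 to 11.3 in vehicle, and their part was not tested. Pik3ca (chromosome 3, 32296047 to 32368595, mm9) had 4.23 to 7.55 FPKM in tKO and 5.23 to 7.75 in WT, and 6.27 to 7.77 in DMOG and 6.85 to 7.89 in vehicle. The log2 difference over the doses was 0.03 (95% interval -0.30 to 0.35), and with DMOG it was -0.06 (95% interval -0.30 to 0.18).

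The balance of the catalytic genes was described by their share of the summed FPKM of Pik3ca, Pik3cb, Pik3cd and Pik3cg, a measure chosen after their values were seen and given without a test. Pik3cd made up 62.0% to 71.3% of that sum in tKO libraries and 69.8% to 82.6% in WT libraries. It made up 68.5% to 69.4% in DMOG and 81.2% to 81.6% in vehicle. The ratio of Pik3cd to Pik3cg was 2.96 and 2.88 in tKO at 0 ng/ml, against 9.86 and 12.3 in WT. It was 4.99 and 3.42 in tKO at 0.2 ng/ml, against 6.69 and 8.55 in WT. It was 3.75 and 3.77 in tKO at 2 ng/ml, against 4.53 and 6.59 in WT. In DMOG the ratio was 3.69 to 4.12, against 9.10 to 9.53 in vehicle. The ratio was lower in both tKO libraries than in both WT libraries at each of the 3 doses, and lower in the 3 DMOG libraries than in the 3 vehicle libraries. Pik3cd was the largest of the 4 genes in every library.

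**Figure D3:**
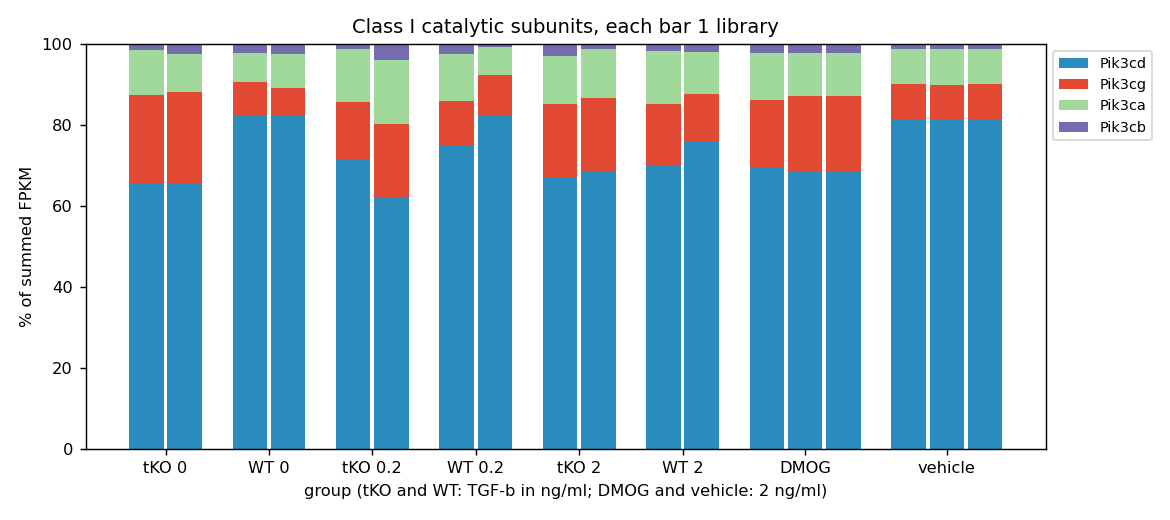
Shares of the summed FPKM of the 4 class I catalytic genes in each library of both experiments, in percent, stacked from 0, with tKO left of WT and DMOG left of vehicle. Pik3cd is the largest share throughout, 62.0% to 71.3% in tKO and 69.8% to 82.6% in WT.

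Pik3r1 (chromosome 13, 102450717 to 102538172, mm9), which encodes the regulatory p85 alpha family, was not called between the genotypes. It had 3.63 and 4.47 FPKM in tKO at 0 ng/ml, against 4.65 and 3.37 in WT. Given 0.2 ng/ml, tKO cells had 6.60 and 13.8 FPKM, against 5.58 and 7.14 in WT. The level of 13.8 FPKM was in the library with the lowest relative reads per FPKM. Given 2 ng/ml, tKO cells had 7.72 and 8.79 FPKM, against 9.98 and 8.16 in WT. The genotypes overlapped at every dose, and the log2 difference over the doses was 0.15 ± 0.18 (limma, adjusted p = 0.606). With TGF-b at 2 against 0 ng/ml the effect was 0.88 ± 0.32 in tKO (adjusted p = 0.0752) and 1.01 ± 0.32 in WT (adjusted p = 0.0476). In WT the call was lost when any of 10 of the 12 libraries was left out (adjusted p of 0.0552 to 0.257), and with no filter, quantile normalization, no trend or the compared groups alone (adjusted p of 0.0502 to 0.113). It held without tKO at 0.2 ng/ml replicate 1 or 2, and leaving these out gave a call in tKO (adjusted p = 0.0283 and 0.0301), as did the labelled series as a block (adjusted p = 0.0468). The test of a difference between the genotypes in this effect gave -0.14 ± 0.45 (adjusted p = 0.903).

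With DMOG, Pik3r1 had 20.4, 15.4 and 20.6 FPKM, against 23.7, 19.1 and 21.3 in vehicle, and the groups overlapped. The log2 difference of the summed rows was -0.18 ± 0.13 (limma, adjusted p = 0.231). The table of experiment 2 lists 2 rows for Pik3r1, whose transcripts it does not name. The row with the lower level had 0.128 ± 0.0975 FPKM in DMOG and 2.40 ± 1.23 in vehicle (SD, n = 3 each). The other row had 18.7 ± 3.02 FPKM in DMOG and 18.96 ± 1.53 in vehicle. Tested row by row, a fit added after the values were seen in which 57.1% of 11884 rows were called, the lower row differed by -1.53 ± 0.20 (adjusted p = 1.97e-05), and the other differed by -0.03 ± 0.13 (adjusted p = 0.852). Pik3cd has 6 rows in that table, of which 3 fell, 2 were not called and 1 was too low to test.

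The lipid phosphatase gene Inpp4b was lower in tKO and in DMOG, and Inpp5d was called in neither. Inpp4b (chromosome 8, 83866452 to 84652201, mm9) had 24.4 and 25.6 FPKM in tKO at 0 ng/ml, against 30.5 and 25.3 in WT. The dose of 0.2 ng/ml gave 19.0 and 14.0 FPKM in tKO, against 29.5 and 28.0 in WT. The dose of 2 ng/ml gave 23.7 and 23.0 FPKM in tKO, against 29.8 and 33.4 in WT. The genotypes overlapped at 0 ng/ml and were apart at the other doses. The log2 difference was -0.45 ± 0.11 over the doses (limma, adjusted p = 0.0103) and -0.78 ± 0.20 at 0.2 ng/ml (adjusted p = 0.0175). At 0 and 2 ng/ml it was -0.15 ± 0.20 and -0.42 ± 0.20, with adjusted p of 0.734 and 0.175. The call over the doses was lost without series tKO2, WT1 or WT2 (adjusted p = 0.0535, 0.126 and 0.0983), and it held without each library in turn. The call at 0.2 ng/ml was lost without WT replicate 1 or 2 or tKO replicate 2 of that dose, with adjusted p of 0.0851 to 0.123, and with the groups of that dose alone (adjusted p = 0.133). In DMOG Inpp4b had 11.0, 8.87 and 12.9 FPKM, against 18.6, 15.0 and 20.6 in vehicle, with no overlap, and the log2 difference was -0.68 ± 0.14 (adjusted p = 4.41e-04). Its entry overlaps 11 others that have no symbol, the most abundant averaging 8.35 FPKM, from which reads cannot be separated by strand.

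Inpp5d (chromosome 1, 89504366 to 89617083, mm9), which encodes SHIP1, had 20.1 and 13.6 FPKM in tKO at 0 ng/ml, against 21.8 and 14.5 in WT. Levels at 0.2 ng/ml were 20.0 and 9.91 FPKM in tKO, against 18.3 and 16.0 in WT. Levels at 2 ng/ml were 28.6 and 25.3 FPKM in tKO, against 15.7 and 14.4 in WT. The genotypes overlapped at the lower doses and were apart at 2 ng/ml. There the log2 difference was 0.80 ± 0.30 (limma, adjusted p = 0.0935), with a 95% interval of 0.14 to 1.46. It was called with the groups of that comparison alone (adjusted p = 0.0250), and without tKO at 0.2 ng/ml replicate 1 or 2 (adjusted p = 0.0339 and 0.0329). In DMOG Inpp5d had 21.6, 20.0 and 25.1 FPKM, against 25.3, 23.6 and 28.4 in vehicle, with overlapping groups and a log2 difference of -0.21 ± 0.12 (adjusted p = 0.141).

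The partners of the TSC complex, the brake on mTORC1, were not called between the genotypes and were both lower with DMOG. At the same dose of 2 ng/ml the estimates for tKO against WT were above 0, at 0.23 ± 0.30 for Tsc1 and 0.61 ± 0.28 for Tsc2. Tsc1 (chromosome 2, 28496752 to 28546689, mm9) was low throughout experiment 1, at 0.972 and 0.883 FPKM in tKO at 0 ng/ml, against 1.75 and 1.95 in WT. With 0.2 ng/ml the values were 1.38 and 1.75 FPKM in tKO, against 1.01 and 1.67 in WT. With 2 ng/ml they reached 4.28 and 4.02 FPKM in tKO, against 3.70 and 3.09 in WT. The tKO libraries were below WT without TGF-b and above it at 2 ng/ml. With TGF-b at 2 against 0 ng/ml Tsc1 rose in tKO by 1.42 ± 0.30 on the log2 scale (limma, adjusted p = 0.00656), and in WT the value was 0.62 ± 0.30 (adjusted p = 0.190). The test of the difference between those effects gave 0.80 ± 0.43 (adjusted p = 0.337). The tKO call was lost without tKO at 0 ng/ml replicate 2 (adjusted p = 0.0524) and without series tKO2 (adjusted p = 0.0931). In DMOG Tsc1 had 2.55, 1.88 and 2.52 FPKM, against 3.95, 3.78 and 4.51 in vehicle, with no overlap and a log2 difference of -0.62 ± 0.11 (adjusted p = 1.52e-04).

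Tsc2 (chromosome 17, 24686894 to 24769574, mm9), the GTPase-activating partner, had 7.20 to 11.0 FPKM in tKO and 5.11 to 10.2 in WT. The genotypes overlapped at 0 and 0.2 ng/ml, and at 2 ng/ml tKO had 11.0 and 8.14 FPKM, against 5.11 and 6.64 in WT, a log2 difference of 0.61 ± 0.28 (limma, adjusted p = 0.160). The log2 difference over the doses was 0.18 ± 0.16 (limma, adjusted p = 0.456). In DMOG Tsc2 had 6.30, 5.07 and 5.65 FPKM, against 8.65, 7.54 and 7.79 in vehicle, with no overlap. The log2 difference was -0.43 ± 0.11 (adjusted p = 0.00293). The Tsc2 entry overlaps that of Pkd1, which averaged 0.752 FPKM.

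Counted by dose, tKO against WT gave 1 of the 9 genes higher and 2 lower at 0 ng/ml, where 9.64% of all tested genes were called, 5.34% higher and 4.30% lower. At 0.2 ng/ml 0 were higher and 3 lower, against 15.5% of all genes, 9.11% higher and 6.38% lower. Only Pik3ip1 was called at 2 ng/ml, lower, against 16.0% of all genes, 7.82% higher and 8.16% lower. In tKO with 0.2 against 0 ng/ml TGF-b, limma called 0 of 9, with 3 at an unadjusted p under 0.05, and 2.48% of all genes, 1.70% higher and 0.782% lower. In tKO with 2 against 0 ng/ml, Pik3ip1 and Tsc1 rose and 0 fell, against 18.0% of all genes, 7.59% higher and 10.4% lower. In WT, Pik3ip1 alone rose with 0.2 against 0 ng/ml, against 1.59% of all genes, 0.918% higher and 0.676% lower. With 2 against 0 ng/ml in WT, Pik3ip1 and Pik3r1 rose, against 15.7% of all genes, 7.79% higher and 7.91% lower. The difference between genotypes in that effect was called by limma for 0 of 9, with 2 at an unadjusted p under 0.05, and for 2.97% of all genes, 1.55% higher and 1.43% lower. DMOG gave 1 gene higher and 5 lower of the 9, and 60.8% of 9884 tested genes were called in that comparison, 27.7% higher and 33.2% lower. The share of the 9 genes called with DMOG is thus near the background, and their median log2 difference was -0.43, against -0.03 over all tested genes.

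**Figure D4:**
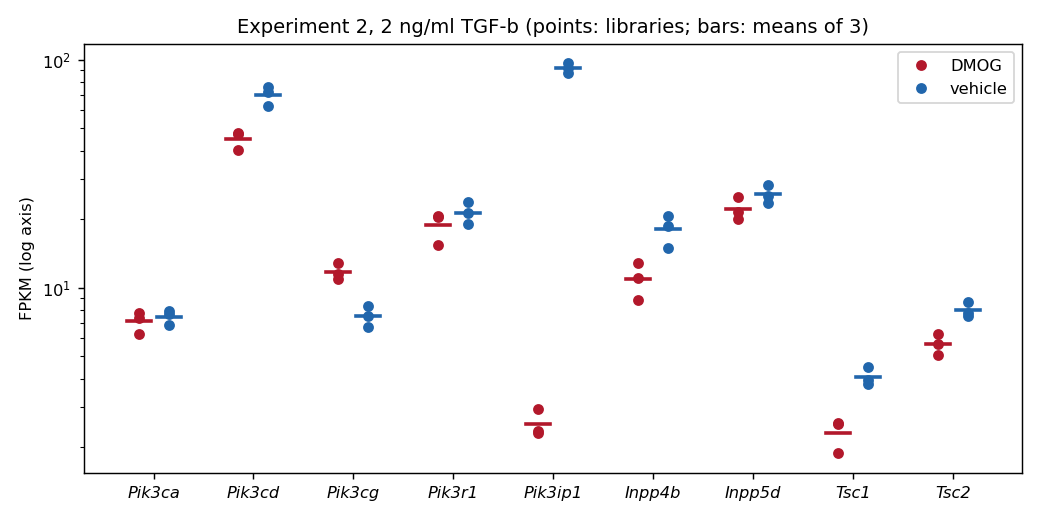
FPKM of the 9 genes in each library of experiment 2 (points), with DMOG left of vehicle and bars at the mean of 3 libraries. Pik3ip1 stands at 2.31 to 2.93 FPKM in DMOG, against 87.7 to 96.4 in vehicle, while Pik3cg is higher in DMOG, at 10.9 to 12.9 FPKM, against 6.71 to 8.33 in vehicle.

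Other genes of the pathway were read from 6 lists with 64 genes, of which 54 were tested in experiment 1 and 58 in experiment 2. Over the doses, 11 of the 54 rose and 9 fell in tKO, where 13.9% of all tested genes were higher and 13.3% lower. Without series WT1 the counts were 4 higher and 7 lower, and without WT2 5 and 6. With DMOG 18 of the 58 rose and 25 fell, where 27.7% of all tested genes were higher and 33.2% lower. The counts of single lists given next stand against these same shares. The median log2 difference was -0.05 over the doses, against -0.02 over all tested genes.

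Of other PI3K genes, 1 of 6 tested rose and 0 fell over the doses, and 3 of 9 rose and 4 fell with DMOG. Pik3ap1, an adaptor best known in B cells for coupling receptors to the kinase, had 8.84 to 29.9 FPKM in tKO libraries, against 2.92 to 6.09 in WT libraries. All tKO libraries were above all WT libraries, by 1.77 ± 0.18 on the log2 scale (limma, adjusted p = 8.08e-06), and DMOG raised it by 1.97 ± 0.11 (adjusted p = 5.37e-11). B cell marker sums reached 83.0 FPKM in tKO, and they were lower in DMOG than in vehicle. Their part in these differences was not tested. Pik3r5, a regulatory partner of p110 gamma, had 16.1, 11.0 and 13.8 FPKM in DMOG, against 5.22, 3.45 and 4.67 in vehicle. The DMOG libraries all stood above the vehicle libraries, by 1.43 ± 0.14 (adjusted p = 1.96e-07). Between the genotypes Pik3r5 differed by 0.04 ± 0.19 over the doses (adjusted p = 0.909), and its rise with TGF-b at 2 against 0 ng/ml in tKO was 1.23 ± 0.33 (adjusted p = 0.0203). The rise was not called without tKO at 0 ng/ml replicate 2 or at 2 ng/ml replicate 1 or 2 (adjusted p of 0.0765 to 0.228). It was 0.79 without the first of these libraries, and without series tKO2 it was 0.65 (adjusted p = 0.384). Pik3r3, another regulatory subunit gene, was at 0.158 to 0.271 FPKM in DMOG and 1.65 to 1.98 in vehicle (adjusted p = 6.25e-09).

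Other brakes moved in both directions. Of 12 tested in experiment 1, 2 rose and 3 fell over the doses, and of 13 tested in experiment 2, 4 rose and 6 fell with DMOG. Sesn1, a sestrin that restrains mTORC1, was at 6.03 to 27.1 FPKM in tKO and 22.8 to 129 in WT, and at 7.45 to 8.23 in DMOG and 96.0 to 103 in vehicle. It differed by -2.17 ± 0.13 on the log2 scale over the doses (limma, adjusted p = 5.97e-08) and by -3.52 ± 0.11 with DMOG (adjusted p = 2.57e-14). Its paralogue Sesn2 went the other way, at 25.05 to 49.4 FPKM in tKO and 7.69 to 16.7 in WT, and at 29.5 to 40.9 in DMOG and 4.97 to 6.07 in vehicle. It differed by 1.60 ± 0.18 over the doses (adjusted p = 1.70e-05) and by 2.51 ± 0.13 with DMOG (adjusted p = 2.34e-11). Inpp5k, another inositol 5-phosphatase gene, differed by -0.67 ± 0.10 over the doses (adjusted p = 2.31e-04) and by -1.95 ± 0.11 with DMOG (adjusted p = 1.09e-10). Both Sesn1 and Inpp5k rose with TGF-b at 2 against 0 ng/ml in each genotype, Sesn1 by 1.65 ± 0.23 in tKO and 2.08 ± 0.23 in WT, and Inpp5k by 1.27 ± 0.17 in tKO and 1.20 ± 0.17 in WT. Ddit4, which encodes the mTORC1 inhibitor REDD1, was higher in tKO at 2 ng/ml by 1.32 ± 0.19 (adjusted p = 3.76e-04). In WT with 2 against 0 ng/ml, Sesn3 rose by 1.30 ± 0.23 (adjusted p = 0.00214), and Inppl1, which encodes SHIP2, fell, by -1.48 ± 0.38 (adjusted p = 0.0184). The call of Inppl1 was lost without any 1 of the 4 WT libraries at these doses (adjusted p of 0.0566 to 0.155).

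Receptors and adaptors had 4 of 7 tested genes higher and 1 lower in tKO over the doses, and 3 higher and 2 lower with DMOG. Cd28, the costimulatory receptor that feeds the kinase, differed in tKO by -0.51 ± 0.09 on the log2 scale over the doses (limma, adjusted p = 0.00100), a call lost without series WT2 (adjusted p = 0.0612). It was at 33.1 to 52.2 FPKM in DMOG and 103 to 129.6 in vehicle (adjusted p = 1.23e-07). Trat1, an adaptor of the antigen receptor, had 55.8, 38.5 and 26.3 FPKM at 0, 0.2 and 2 ng/ml in series tKO1 and 121.8, 91.4 and 54.0 in tKO2, against 58.4, 24.1 and 26.3 in WT1 and 63.4, 33.7 and 18.8 in WT2. Series tKO2 stood above the other 3 series at each dose, and tKO1 lay below both WT series at 0 ng/ml, above both at 0.2 and level with WT1 at 2. The log2 difference over the doses was 0.74 ± 0.25 (adjusted p = 0.0417), and without series tKO2 it was 0.18 (adjusted p = 0.458). Leaving out any 1 of 9 libraries also ended the call: tKO replicate 2 at each dose, and each of the 6 WT libraries (adjusted p of 0.0526 to 0.150). DMOG moved Trat1 by -2.12 ± 0.11 (adjusted p = 4.02e-11). Irs2, an adaptor downstream of insulin and cytokine receptors, was higher over the doses by 0.73 ± 0.20 (adjusted p = 0.0157), and DMOG raised it by 1.14 ± 0.12 (adjusted p = 4.37e-07). The call over the doses was lost without tKO at 2 ng/ml replicate 1 or WT at 0.2 ng/ml replicate 2 (adjusted p = 0.0578 and 0.0539), and without series tKO1 the difference was 0.44 (adjusted p = 0.160).

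Of AKT and related kinases, 1 of 9 was higher and 0 lower in tKO over the doses, and 4 rose and 2 fell with DMOG. Sgk1, a PI3K-dependent kinase, rose with TGF-b at 2 against 0 ng/ml by 2.98 ± 0.30 on the log2 scale in tKO (limma, adjusted p = 5.87e-05) and by 1.84 ± 0.30 in WT (adjusted p = 0.00129). Of mTOR complexes and targets, 1 of 10 rose and 1 fell over the doses, and 4 rose and 3 fell with DMOG. Eif4ebp1, an inhibitor of translation that mTORC1 phosphorylates, was at 152 to 370.2 FPKM in tKO and 53.0 to 126 in WT. It rose by 1.69 ± 0.11 over the doses (adjusted p = 1.61e-07) and by 2.05 ± 0.11 with DMOG (adjusted p = 4.25e-11). Its relative Eif4ebp2 was lower in tKO at 2 ng/ml by -1.01 ± 0.26 (adjusted p = 0.0181), a call lost without any 1 of the 4 libraries of that dose (adjusted p of 0.0607 to 0.120).

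FOXO factors and T cell genes that FOXO1 is known to drive had 2 of 10 higher and 4 lower in tKO over the doses, against 13.9% higher and 13.3% lower of all tested genes. With DMOG 0 of the 10 were higher and 8 lower, against 27.7% and 33.2%. Among those that fell over the doses were Klf2, S1pr1 and Tcf7, genes of quiescence, egress and the naive state. S1pr1, a sphingosine-1-phosphate receptor gene, differed by -1.99 ± 0.11 on the log2 scale over the doses (limma, adjusted p = 3.14e-08) and by -2.90 ± 0.15 with DMOG (adjusted p = 2.08e-11). Il7r, which encodes a chain of the IL-7 receptor, was higher over the doses by 0.64 ± 0.20 (adjusted p = 0.0306) and moved by -1.05 ± 0.14 with DMOG (adjusted p = 7.92e-06). Over the doses its call was lost without any 1 of 6 libraries: tKO replicate 1 at each dose, WT at 0 ng/ml replicate 2, WT at 0.2 ng/ml replicate 2 and WT at 2 ng/ml replicate 1 (adjusted p of 0.0525 to 0.111). Without series tKO1 the difference of Il7r was 0.38 (adjusted p = 0.250). Foxo1 itself differed by -0.20 ± 0.10 over the doses (adjusted p = 0.154), and DMOG lowered it, by -0.35 ± 0.12 (adjusted p = 0.0225), a call lost without DMOG replicate 2 or vehicle replicate 1 or 3 (adjusted p of 0.0796 to 0.140). Foxo3 was higher in tKO at 0.2 ng/ml by 1.22 ± 0.32 (adjusted p = 0.0201), a call lost without tKO replicate 2 or WT replicate 1 or 2 of that dose (adjusted p of 0.0505 to 0.168).

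With TGF-b at 2 against 0 ng/ml, 6 of the 10 FOXO-list genes rose in tKO and 5 in WT, against 7.59% and 7.79% of all tested genes, and 0 fell in either, against 10.4% and 7.91%. Foxo1 rose by 0.62 ± 0.17 in tKO (limma, adjusted p = 0.0208) and by 1.12 ± 0.17 in WT (adjusted p = 6.90e-04), and the tKO call was lost without tKO at 0 ng/ml replicate 2 or at 2 ng/ml replicate 1 or 2 (adjusted p of 0.0745 to 0.142). Cdkn1b, a cell cycle inhibitor, rose in WT by 1.23 ± 0.26 (adjusted p = 0.00704), a call lost without WT at 0 ng/ml replicate 2 or at 2 ng/ml replicate 1 (adjusted p = 0.0715 and 0.0562). Klf2 rose by 3.46 ± 0.24 in tKO (adjusted p = 1.97e-06) and by 0.97 ± 0.24 in WT (adjusted p = 0.0145), where the call was lost without any 1 of the 4 libraries compared (adjusted p of 0.0548 to 0.0962). It was the gene of this list whose dose effect differed between the genotypes, by 2.49 ± 0.33 (adjusted p = 0.00201), a call lost without series WT1 or WT2 (adjusted p = 0.196 and 0.130). For Pik3ip1 the same estimate had the opposite sign, at -1.12 ± 0.36, and was not called.

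**Figure D5:**
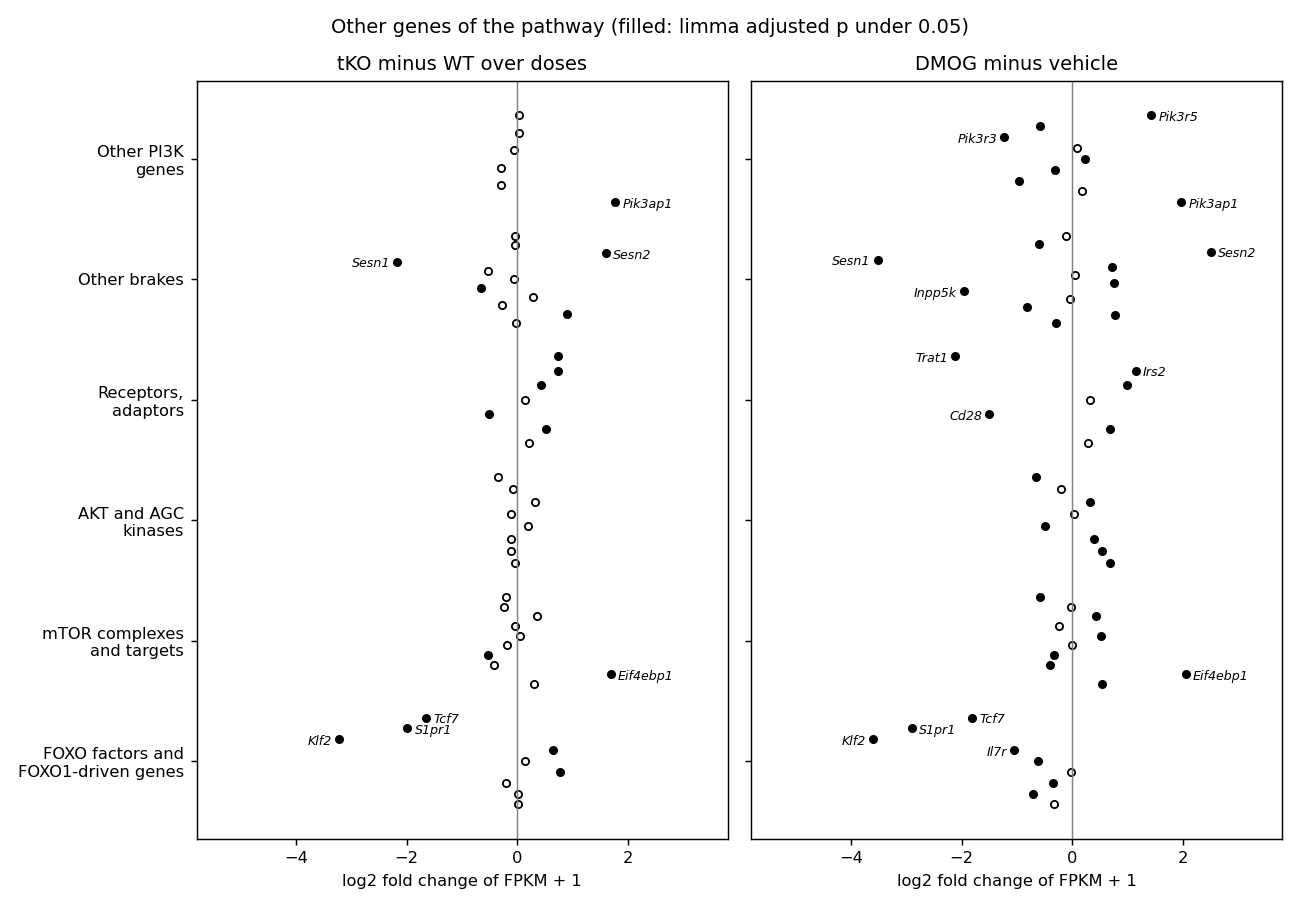
Log2 fold changes of FPKM + 1 for genes of 6 pathway lists (rows), without those not reported here, for tKO minus WT over the doses (left) and DMOG minus vehicle (right). Filled points mark adjusted p under 0.05 by limma, and those called with at least 1 log2 unit are named; Sesn1 lies at -2.17 and -3.52, and Sesn2 at 1.60 and 2.51.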

How the data were processed

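RNA extracted with RNeasy kits went into SMARTer Ultra low input libraries, per the labels' protocols, a kit without strand marking; each experiment had its own sequencer. The mm9 build, TopHat, Cufflinks, Cuffdiff and Trimmomatic are listed, per the submitters' processing notes, with settings and versions not given in the sources used here. FPKM values are as the authors deposited them, per the file headers, in 1 table for each of 2 experiments, so tests stay within a table. Exact duplicate rows (18 of 34309 and 291 of 23028) were dropped and other rows summed per symbol. The 8482 entries of experiment 1 without a symbol were left out. Genes whose mean reached 1 FPKM (10354 and 9884) were tested on log2(FPKM + 1), two-sided, in limma 3.58.1 (R 4.3.3), fitting all groups of a table with a mean-variance trend, with Benjamini-Hochberg adjustment. The number of reads is unknown, so no counting intervals are given; relative reads per FPKM were read from low values. Scripts were tested on simulated data. There, changes of 1 log2 unit were called for 25% of changed genes in tKO against WT at 2 ng/ml, and for 94% with DMOG. A gene called only with DMOG thus need not differ between the experiments. The 9 genes and the lists were chosen with earlier results of these data known. All 9 are named; other pathway genes are named where called with an absolute log2 fold change of at least 1 in some comparison, and are then given in others too. Some genes that meet this rule are not reported here, though the counts per list include them. The labels tie the doses of experiment 1 by series name but state no paired design, so no block was used, and the series block was tried for dose effects. Deviations from the group means correlated between doses within a series at r of 0.110 to 0.416 in tKO and 0.0573 to 0.186 in WT. Alternatives were the pseudocount, the filter, 2 scalings, the trend, blocks, left-out libraries and series, and single rows; for the other pathway genes they were added after seeing the data.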

Additional observations from a re-analysis of the deposited data

How the results depend on the processing

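Of 90 results (9 genes in 10 comparisons), 22 were called, and across 2177 refits 2088 stayed on the same side of the threshold, 74 lost a call, 15 gained one and 0 reversed where either fit made a call. In 72 of the 2088, from 30 uncalled results, the estimate changed sign. Of 9 genes, those called over the doses numbered 4, and 1 without series tKO2, 2 without WT1, 1 without WT2 and 2 with 1 mean per series (3 to 4 without a single library). At 0 ng/ml the count was 3, and 1, 0 and 1 without tKO2, WT1 and WT2 and 1 with the compared groups only (1 to 3). At 0.2 ng/ml it was 3, and 1 in each of these 4 fits (1 to 4). At 2 ng/ml it was 1, and 2 with the replicate block or the compared groups only (1 to 2). For TGF-b in tKO, the count at 0.2 against 0 ng/ml was 0, and 1 with a pseudocount of 0.1 or the labelled series block, which was added after seeing the data (0 to 3). At 2 against 0 it was 2, 3 with the labelled series block, and 1 with a filter of 5 FPKM, where Tsc1 was not tested, or without tKO2 (1 to 3). In WT it was 1 at 0.2 against 0, and 0 without WT1 or WT2 (1 to 1). At 2 against 0 in WT it was 2, and 1 with no filter, quantile normalization, no trend, without WT1 or WT2, or the compared groups only (1 to 2). The genotype difference of the dose effect gave 0 (0 to 1), and DMOG 6 (6 to 6). The cause of these shifts was not tested, and fits on fewer libraries both lost and gained calls. The replicate block changed 1 of the 90 results, Inpp5d at 2 ng/ml (adjusted p = 0.0302). Same-numbered libraries correlated in their deviations from the group means at r of -0.194 to 0.443 in experiment 2. These values cannot show whether such libraries share a source, which the labels do not state. With only the row of highest mean, the mean over experiment 2 was 18.0 FPKM for Pik3cd, 5.61 for Pik3cg, 12.6 for Inpp5d and 5.92 for Tsc2, below the summed levels, and no call changed. Leaving out a whole labelled series also ended dose-effect and single-dose calls of other pathway genes, Sgk1, Sesn1, Sesn3 and Inpp5k in WT among them. Where a group kept 1 library, it was assumed to vary like the other groups. The lowest values, those of Tsc1, carry the least precision, and read depth is unknown.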

Other observations

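For each of the 9 genes, the 3 tested genes with the most similar pattern were found by Pearson correlation of log2(FPKM + 1) over the 12 libraries of experiment 1, which share genotypes, doses and series. Pik3ip1 was nearest to Stk17b (r = 0.991), a serine/threonine kinase gene, to Smc4 (r = 0.975), a condensin subunit gene, and to Lpar6 (r = 0.975), a lysophosphatidic acid receptor gene. Pik3cd was nearest to an entry that joins Ecm1, Rprd2 and Tars2 (r = 0.951), and Pik3cg to Asl (r = 0.911). Inpp5d was nearest to Usp37 (r = 0.947) and Inpp4b to Fam172a (r = 0.939). Pik3r1 was nearest to B4galt1 (r = 0.914), and next to Gpbp1l1 (r = 0.898) and Cdkn1b (r = 0.897). Tsc1 (Fgd1, r = 0.888), Tsc2 (Pramef8, r = 0.943) and Pik3ca (Rb1cc1, r = 0.893) completed the set. These values describe likeness over 12 libraries and carry no test.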
